A study of Mus musculus with 5 samples.

Results

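The 9 genes described here are Pmel, Mlana, Tyr, Tyrp1, Dct, Oca2, Slc45a2, Gpr143 and Mitf. Mitf encodes a regulator of such genes, and the others encode proteins that build the melanosome or make melanin inside it. All 9 genes were chosen by name from 18193 genes measured on arrays of mouse retinal RNA, and all 9 had a probe set. A gene with several probe sets was represented by the one of highest mean over all arrays. The 5 pools that were measured held 3 from diabetic mice and 2 from control mice. Diabetic pools 1 and 2 each combined 4 retinas of 2 mice, taken 5 weeks after diabetes was induced with streptozotocin, which destroys pancreatic beta cells. Diabetic pool 3 combined 6 retinas of 3 mice with experimentally induced diabetes of 3 to 4 weeks, the agent not being named. Control pools 1 and 2 each combined 4 retinas of 2 untreated, age-matched mice with normal blood glucose. Strain, sex and age in weeks were not given in the sources used here, and no pool was measured mouse by mouse.

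Melanin is made in melanosomes, organelles that mature from colourless vesicles striped with Pmel fibrils. Tyr oxidises tyrosine in the first step of the pathway, and Dct and Tyrp1 act on later intermediates of the brown-black pigment, while Oca2, Slc45a2 and Gpr143 set the chemistry, number and size of the organelle. In the eye, melanosomes belong to the retinal pigment epithelium, the layer that faces the photoreceptors, to the pigmented epithelia of ciliary body and iris, and to melanocytes of the choroid. The neural retina itself carries no melanin.

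Mitf, a basic helix-loop-helix leucine zipper factor, is the regulator shared by these genes and binds the letters CATGTG within a longer element called the M-box. The sequence before the start of the 3 enzyme genes is shown as background. With the probe set that represents each gene, all 3 were lowest in diabetic pool 2 and control pool 1. A dimmer Tyr probe set did not share this order, nor did Mitf itself. Whether the element bears on the pool values was not tested. RefSeq windows of build GRCm38.p6 were found for 5 of the 9 genes, and each line below gives the 250 bases before the annotated start, 5′ to 3′, with CATGTG on either strand in capitals.
Tyr, chr7:87493513-87493762, minus strand: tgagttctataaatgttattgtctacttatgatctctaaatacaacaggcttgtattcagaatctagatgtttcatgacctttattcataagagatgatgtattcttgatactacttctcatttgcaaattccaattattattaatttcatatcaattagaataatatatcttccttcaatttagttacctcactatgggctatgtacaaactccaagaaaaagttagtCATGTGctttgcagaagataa
Tyrp1, chr4:80833963-80834212, plus strand: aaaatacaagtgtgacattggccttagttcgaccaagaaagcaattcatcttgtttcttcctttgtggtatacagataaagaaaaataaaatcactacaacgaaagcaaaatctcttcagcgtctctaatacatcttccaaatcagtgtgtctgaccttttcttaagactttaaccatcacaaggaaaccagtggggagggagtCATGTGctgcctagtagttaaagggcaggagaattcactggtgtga
Dct, chr14:118052247-118052496, minus strand: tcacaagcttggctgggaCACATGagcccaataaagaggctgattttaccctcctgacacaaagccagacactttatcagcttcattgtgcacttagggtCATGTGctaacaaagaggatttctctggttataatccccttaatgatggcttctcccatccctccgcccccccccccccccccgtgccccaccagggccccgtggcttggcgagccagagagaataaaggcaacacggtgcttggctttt
The longest run common to the 3 windows was GTCATGTGCT, 10 bases that began at position -23 in Tyr, -48 in Tyrp1 and -152 in Dct, where -1 is the base just before the start. This run was looked for after the windows had been read, and it stood on either strand in 51 of 32851 windows of the same length, or 0.155%. The shorter TCATGTG, which contains CATGTG, stood in 3.25% of windows, CATGTG in 12.3% and the palindrome CACGTG in 6.02%. Dct held a further CATGTG on the opposite strand, from position -232. The window of Oca2 held CATGTG on the opposite strand but not TCATGTG, and the 3 windows of Mitf held neither, nor did any window of these 5 genes hold CACGTG. A match describes letters in a window and does not show binding.

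Pmel, the fibril protein, varied by more than most genes between pools of the same group. Its signal, on the linear scale of the deposited values, was 4273, 288 and 2498 in diabetic pools 1 to 3 and 526 and 4185 in control pools 1 and 2. The pools therefore fell into high and low values inside each group, and the groups overlapped. On the scale used for all tests, log2 of the signal plus 120.6, the mean of Pmel was 10.71 ± 1.80 (SD, n = 3) over the diabetic pools, against 10.70 ± 1.93 (SD, n = 2) over the controls. Mlana encodes a small membrane protein of the early melanosome, also known as MART-1. Its signal was 1194, 16.8 and 526 in diabetic pools 1 to 3 and 220 and 658 in control pools 1 and 2. The value in diabetic pool 2 lay far below the 20th percentile of all signals, 120.6, where the background correction is not known, so no fold is given for it.

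Among the enzymes, Tyrp1 ran with Pmel. The signal of Tyrp1 was 4812, 257 and 2304 in diabetic pools 1 to 3 and 764 and 4063 in control pools 1 and 2, an 18.7-fold span from lowest to highest. Its other 2 probe sets gave the same order of low pools, with log2 spans of 2.94 and 3.35 beside 3.71 for the chosen one. Dct had signals of 11287, 1906 and 7865 in diabetic pools 1 to 3 and of 2976 and 8901 in control pools 1 and 2. Dct thus had its lowest values in diabetic pool 2 and control pool 1 as well, over a narrower 5.92-fold span. For Tyr, the rate-limiting enzyme, the signal was 579, 205 and 467 in diabetic pools 1 to 3 and 198 and 541 in control pools 1 and 2. All 5 values of Tyr lay under the level at which a gene was tested, a mean of 9.70 on the log2 scale (a signal of about 713). Of its other 2 probe sets, one was again lowest in diabetic pool 2 (33.6) and control pool 1 (58.1). The remaining one did not share the order, with 205, 194 and 192 in diabetic pools 1 to 3 and 393 and 309 in control pools 1 and 2.

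The transporters and the receptor were less uniform. Oca2, a melanosomal anion channel protein, had signals of 1067, 631 and 736 in diabetic pools 1 to 3 and 801 and 1141 in control pools 1 and 2. Its highest values were in diabetic pool 1 and control pool 2, and its lowest in diabetic pools 2 and 3. Slc45a2, a membrane transporter that raises melanosomal pH, had 426, 228 and 698 in the diabetic pools and 481 and 780 in the control pools. Slc45a2 was lowest in diabetic pool 2 and, unlike the enzymes, next lowest in diabetic pool 1. Gpr143, the melanosomal receptor of ocular albinism, had 215, 138 and 261 in the diabetic pools and 41.3 and 612 in the control pools. Its lowest and highest values were thus those of the 2 controls, and the 41.3 in control pool 1 is too low for a fold.

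Mitf varied least of the 9 genes. Its signal was 2886, 2213 and 2197 in diabetic pools 1 to 3 and 2312 and 3214 in control pools 1 and 2, a span of 0.53 on the log2 scale. Diabetic pool 1 and control pool 2 were again highest, but the other 3 pools lay close together. A dimmer Mitf probe set, drawn from another transcript sequence, gave 534, 381 and 63.6 in the diabetic and 39.9 and 318 in the control pools. It did not put diabetic pool 2 among the low pools, so the Mitf probe sets disagree. Mitf has alternative starts, is made in several cell types, and which of its transcripts each probe set reads was not examined.

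**Figure D1:**
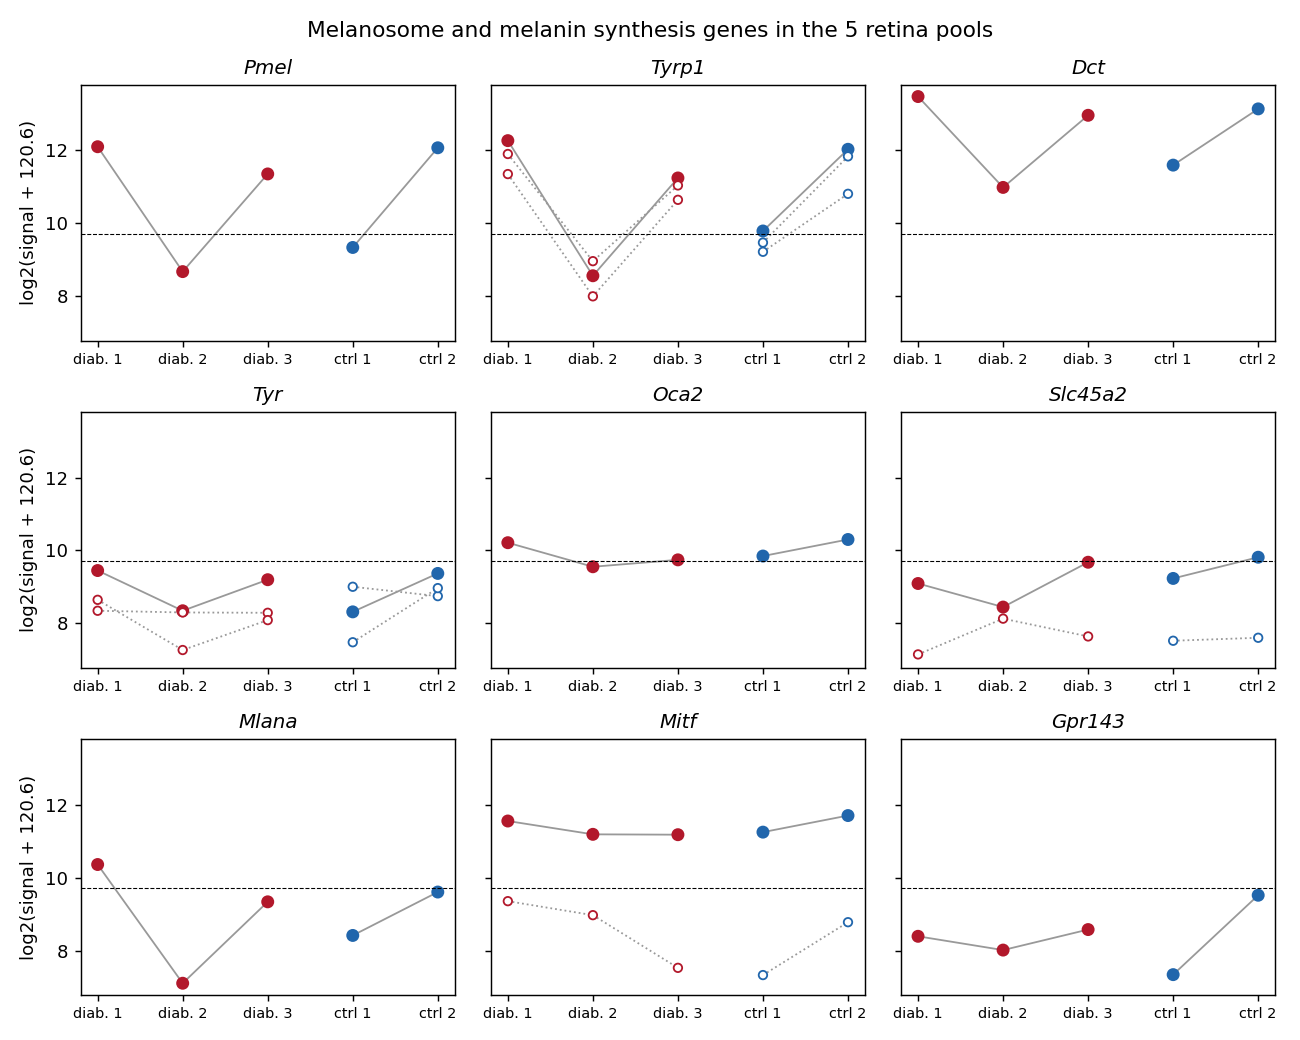
Level of each gene as log2(signal + 120.6) in the 5 pools, with diabetic pools in red and control pools in blue. Filled points are the probe set that represents the gene, open points its other probe sets, lines only join values of 1 probe set within a group, and the dashed line is the filter level of 9.70. Pmel, Tyrp1, Dct and Mlana are high in diabetic pools 1 and 3 and control pool 2, while Oca2 and Mitf vary less.

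The span from lowest to highest pool placed Tyrp1, Pmel and Dct among the most variable of the array. On the log2 scale it was 3.71 for Tyrp1, 3.43 for Pmel and 2.49 for Dct, against a median of 0.46 and a 99th percentile of 1.97 over all 18193 genes. Mlana and Gpr143 are not ranked, since their lowest signals, 16.8 and 41.3, lay under 120.6 and the pseudocount sets their span. Slc45a2 at 1.37, Tyr at 1.13, Oca2 at 0.75 and Mitf at 0.53 lay below that percentile. Most of this span lay inside the groups. Diabetic pool 1 exceeded diabetic pool 2 by 3.43 for Pmel, 3.71 for Tyrp1 and 2.49 for Dct. Control pool 2 exceeded control pool 1 by 2.74 for Pmel, 2.24 for Tyrp1, 1.54 for Dct and 1.19 for Mlana.

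**Figure D2:**
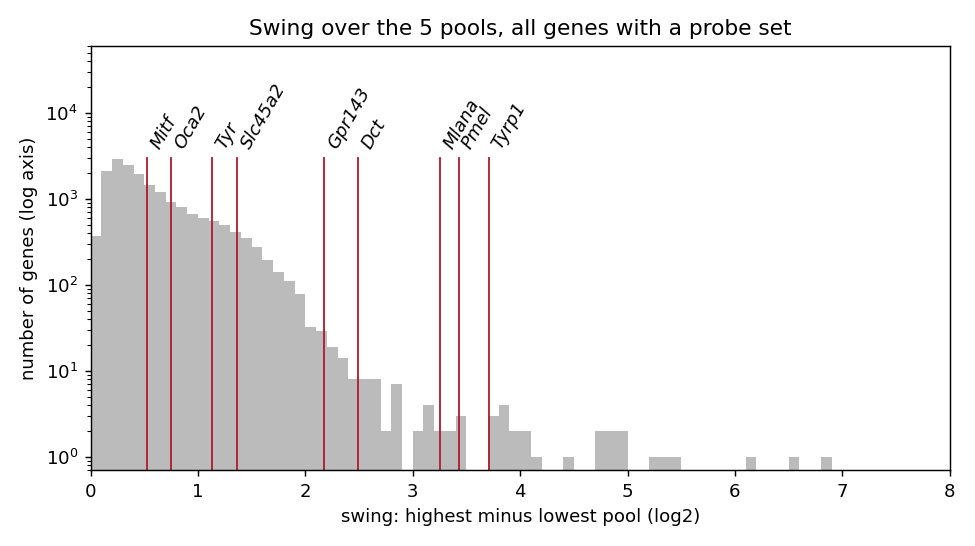
Histogram of the span over the 5 pools, highest minus lowest log2 level, for 18193 genes, with the number of genes on a log axis and a red line at each of the 9 genes. Mitf, at 0.53, sits near the bulk of genes, and Pmel and Tyrp1 sit in the sparse tail above 3; the lines of Mlana and Gpr143 depend on the pseudocount, since their lowest signals lay under it.

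Diabetic pool 2 and control pool 1 were the lowest pools for 6 of the 9 genes: Pmel, Tyrp1, Dct, Tyr, Mlana and Gpr143. The same held for 9.64% of all 18193 genes and 8.68% of the 10916 tested ones. The genes were proposed with this pattern in view, so the count describes them and is no test. Centred on its own mean over the pools, Pmel was at 1.39, -2.03 and 0.65 in diabetic pools 1 to 3 and at -1.37 and 1.36 in control pools 1 and 2. Tyrp1 was at 1.49, -2.22, 0.47, -0.99 and 1.25 in the same order, and Dct at 1.05, -1.45, 0.53, -0.84 and 0.71. The centred values of these 3 genes lay within 0.18 of each other in diabetic pool 3 and within 0.77 in diabetic pool 2, where they were furthest apart.

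Setting diabetic against control pools asked whether pigment transcripts in retinal RNA differ within weeks of diabetes. With the probe set that represents each gene, the groups overlapped in all 9 genes. Groups did not overlap in 18.1% of the tested genes and 18.5% of all genes, and 9 genes are too few to set apart from these shares. A dimmer Tyr probe set had groups that did not overlap, with signals of 205, 194 and 192 in the diabetic pools and 393 and 309 in the control pools. The 5 pools were compared with limma, and 5 of the 9 genes passed the filter on dim genes (Pmel, Tyrp1, Dct, Oca2 and Mitf). None of these 5 passed an adjusted p of 0.05, as none did among all 10916 genes tested (0%; 370 genes had an unadjusted p under 0.05). The log2 difference, diabetic minus control, was 0.0056 for Pmel (SE 1.01, 95% interval -2.31 to 2.32). It was -0.22 for Tyrp1 (SE 0.99, interval -2.49 to 2.05) and 0.11 for Dct (SE 0.68, interval -1.45 to 1.67). Limma's Benjamini-Hochberg adjusted p was 0.999 for each. These intervals are wide enough to hold a log2 change of 2 for Pmel or Tyrp1 in either direction, so the data do not show that the groups are alike.

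Oca2 differed by -0.24 (SE 0.25, interval -0.81 to 0.34) and Mitf by -0.17 (SE 0.18, interval -0.58 to 0.24), with an adjusted p of 0.999 for each from limma. The differences of the 4 genes under the filter were 0.15 for Tyr, -0.45 for Slc45a2, -0.08 for Mlana and -0.10 for Gpr143, with no test. With single arrays left out, these ran from -0.37 to 0.68 for Tyr, -0.75 to -0.14 for Slc45a2, -0.79 to 0.84 for Mlana and -1.19 to 0.99 for Gpr143. Over the 9 genes the median difference was -0.10, and over the 10916 tested genes 0.01. The standard errors of Pmel and Tyrp1 were several times the median of 0.12 over all tested genes. Single arrays decided the sign for Pmel, Tyrp1, Dct and Mitf among the tested genes, while Oca2 stayed negative, from -0.46 to -0.01. Without control pool 1 the difference was -1.36 for Pmel, -1.34 for Tyrp1, -0.66 for Dct, -0.46 for Oca2 and -0.40 for Mitf. Without control pool 2 it was 1.37, 0.90, 0.88, -0.01 and 0.06 for the same genes, and each of these fits takes the lone control array to vary like the others. Without diabetic pool 2, Pmel was at 1.02, Tyrp1 at 0.85 and Dct at 0.85, and without diabetic pool 1 Pmel was at -0.69 and Dct at -0.39. Without diabetic pool 3, Pmel was at -0.32 and Dct at -0.14.

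Probe sets were also fitted singly. Of the 15 probe sets of the 9 genes, 8 passed the same filter applied to probe sets and 0 passed the test in limma, beside 0% of 20967 probe sets (579 had an unadjusted p under 0.05). The 3 probe sets of Tyrp1 differed by -0.22, -0.02 and -0.02. Those of Tyr differed by 0.15, -0.56 and -0.22, those of Slc45a2 by -0.45 and 0.08 and those of Mitf by -0.17 and 0.56. Tyr, Slc45a2 and Mitf thus had probe sets of opposite sign, and in each of these genes at least 1 of them was dim.

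**Figure D3:**
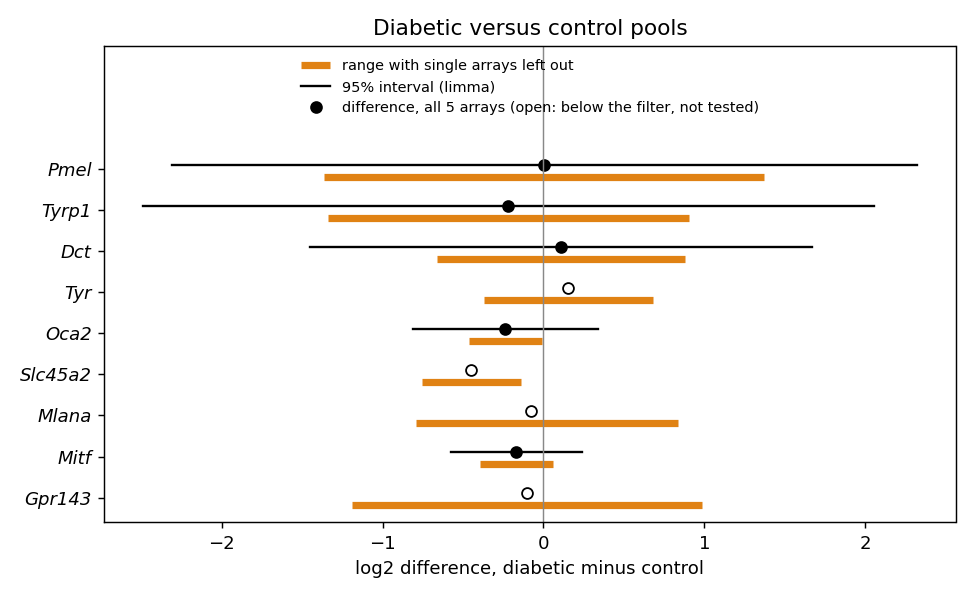
Log2 difference, diabetic minus control, for the 9 genes, with the 95% interval from limma for the 5 tested genes and, in orange, the range of the difference when each array is left out in turn. Open points are genes below the filter on dim genes. Every interval crosses 0, and the ranges of Pmel run from -1.36 to 1.37.

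Other genes of the melanosome were listed for organelle assembly, transport and ion balance. Of 31 listed genes 29 had a probe set and 23 were tested, with 15 higher and 8 lower in diabetic pools, 0 called against 0% of all genes, and a median difference of 0.02 against 0.01. The median span of the tested genes was 0.35 on the log2 scale, against 2.49 for the 5 tested pigment genes and 0.32 for all tested genes. Diabetic pool 2 and control pool 1 were the lowest pools for 4 of the 29 genes (Gpnmb, Rab38, Mlph and Rabggta), against 9.64% of all genes. Gpnmb encodes a glycoprotein related to Pmel that macrophages also make. Gpnmb was at 11.72, 10.31 and 11.40 in diabetic pools 1 to 3 and at 10.28 and 11.10 in control pools 1 and 2 on the log2 scale. Its groups differed by 0.45 (SE 0.40, limma adjusted p = 0.999). Rab38, a small GTPase that delivers enzymes to the melanosome, was at 10.23, 9.86 and 10.25 in the diabetic and 9.58 and 10.17 in the control pools. Mlph, the linker of melanosomes to the myosin motor, lay under the filter, at 9.08, 8.54 and 8.72 in the diabetic and 7.11 and 9.47 in the control pools. Hps6, also under the filter, had its lowest values in diabetic pool 3 and control pool 1.

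Subunits of sorting complexes that most cells use had small spans. Bloc1s6 spanned 0.03, Dtnbp1 0.19, Ap3d1 0.21, Snapin 0.22 and Ap3b1 0.24. Motor and tethering genes were similar, with Myo5a, the myosin that carries melanosomes, at 0.29 and Lyst, a regulator of lysosome-related organelle size, at 0.23. Hps3 spanned 0.32 and Hps4 0.27. Groups did not overlap in 3 of the 23 tested genes of this list, against 18.1% of all tested genes: Myo5a (0.20), Ctns (0.40), the lysosomal cystine exporter, and Rab27a (-0.43), the GTPase that binds Mlph, with none passing the test.

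Regulators of pigment genes differed among themselves. Of 13 listed, 12 had a probe set and 8 were tested, with 2 higher, 6 lower, 0 called and a median difference of -0.02. Their median span was 0.34 among tested genes, against 0.32 over all tested genes. Diabetic pool 2 and control pool 1 were lowest for 3 of the 12 (Otx1, Lef1 and Sox9), against 9.64% of all genes. Groups did not overlap for Tfeb (-0.45) and Pax6 (0.03), 2 of the 8 tested, against 18.1% of all tested genes. Otx2, a homeobox factor that acts with Mitf in pigment epithelium and is also made by photoreceptors and bipolar cells, was at 15.27, 14.91 and 15.09 in the diabetic and 15.12 and 15.08 in the control pools. Pax6, active in many retinal neurons, spanned 0.07. Sox9, made by pigment epithelium and by Muller glia, shared the 2 low pools of the enzymes but not the order of the others, at 10.52, 9.76 and 10.65 in the diabetic and 9.94 and 10.70 in the control pools. Tfec, a relative of Mitf, was at the lower end of the scale in every pool (7.01 to 7.32).

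A likeness measure was computed between each tested gene and the mean centred profile of the 5 tested pigment genes over the 5 pools, as the root mean square difference of centred log2 levels. A gene level in all pools would lie 0.84 from that profile, and the median of all tested genes was 0.86. Of the 5 genes that made the profile, Dct lay at 0.19, Tyrp1 at 0.57, Pmel at 0.60, Oca2 at 0.61 and Mitf at 0.69. Nearness to this mean is therefore not likeness to Pmel or Tyrp1. Lum, a connective tissue gene under the filter, lay at 0.22 and was left out. The 12 nearest tested genes outside the 9, clone names left out, lay between 0.41 and 0.56. They were Gpnmb, Acta2, Myl9, Sox9, H2-M3, Col6a3, Gpx3, Tatdn1, Mbd4, Suv39h2, Tcea3 and Papolb. Acta2, the smooth muscle actin, was at 12.31, 11.09 and 11.77 in the diabetic and 11.32 and 11.87 in the control pools. Myl9, a smooth muscle myosin light chain, was at 11.24, 10.10 and 10.84 and at 10.58 and 10.94. Gpx3, a secreted glutathione peroxidase, was at 11.31, 10.10 and 11.06 and at 10.22 and 10.62, and Col6a3, a microfibril collagen chain, at 11.01, 9.40 and 9.39 and at 9.23 and 11.11. All of them varied less than Pmel or Tyrp1, with spans from 0.91 to 1.88.

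Marker lists of the tissues around the retina are set beside these values. In pooled tissue, fewer cells of a type and less RNA per cell cannot be told apart. Neural retina markers were bright and mostly steady, with a median span of 0.25. The summed signal of 8 genes, which the brightest of them dominate, ran from 554436 to 612661 in diabetic and from 545036 to 624353 in control pools. Of these, the rod genes Sag and Nrl spanned 0.37 and 0.24. The dimmer Pou4f1 spanned 0.66, at 11.53, 11.81 and 11.43 in diabetic and 11.47 and 11.15 in control pools. Groups did not overlap for 1 of the 8 genes, Crx (-0.17), against 18.1% of all tested genes. The labelled tissue therefore had its defining transcripts in every pool.

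Genes of the retinal pigment epithelium outside the melanosome did not share the order of the pigment genes. Diabetic pool 2 and control pool 1 were the lowest pools for 0 of the 10 listed, against 9.64% of all genes. A list of 10 genes is too short to set apart from that share. Of the 9 tested, 0 were higher and 9 lower in diabetic pools, with a median difference of -1.14 against 0.01 for all tested genes. Groups did not overlap in 6 of these 9, against 18.1% of all tested genes, and 0 were called against 0%. Rpe65, the isomerase of the visual cycle, was at 11.26, 11.43 and 10.66 in diabetic and at 12.17 and 13.31 in control pools. Between diabetic pools 1 and 2 it differed by -0.18, while Pmel differed by 3.43 in the same direction of subtraction. Between control pools 2 and 1, Rpe65 differed by 1.14 and Pmel by 2.74. Control pool 2 was thus high for Pmel and Rpe65, and diabetic pool 1 for Pmel without a high Rpe65. Also between control pools 2 and 1, Rgr differed by 1.36, Lrat by 1.53 and Rdh5 by 1.08. Serpinf1 differed by 1.04, Slc16a8 by 0.51 and Ttr by 0.40. Rlbp1 and Rrh, also of the visual cycle, differed by -0.11 and -0.03 between these pools, and Best1, under the filter, by -0.17. Of the epithelium list's most abundant genes, Ttr, the thyroxine and retinol carrier, differed by -0.67 between diabetic pools 1 and 2 and Rlbp1, also made by Muller glia, by -0.14. The summed signal of the list ran from 89965 to 126091 in diabetic and from 144527 to 188196 in control pools.

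Melanocyte markers were measured for 6 of 7 listed genes, and their median span was 0.52. Sox10, the neural crest factor of melanocytes and Schwann cells, was at 9.67, 9.53 and 9.87 in the diabetic and 9.98 and 9.70 in the control pools. Kit, the stem cell factor receptor, was at 10.05, 9.64 and 10.14 and at 10.21 and 10.50, and Mc1r, the melanocortin receptor, at 10.74, 10.82 and 10.41 and at 10.78 and 10.48. Ednrb, the most abundant of the list, is also a Muller glia gene and spanned 0.52. Diabetic pool 2 and control pool 1 were the lowest pools for 1 of the 6 genes, Ednrb, against 9.64% of all genes. Erbb3, under the filter, was at 9.15, 8.19 and 9.11 in the diabetic and 9.04 and 9.003 in the control pools. The summed signal of the list ran from 5511 to 6698 in diabetic and from 6724 to 6928 in control pools, and no listed marker was at 0. In the ciliary body and iris list, the same pools were lowest for 1 of 4 genes, Optc, a protein of the ciliary epithelium, again against 9.64%. Optc lay under the filter at 8.74, 7.58 and 8.23 in the diabetic and 7.74 and 7.94 in the control pools. Zic1 spanned 0.52.

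Connective tissue genes of sclera and choroid shared part of the pattern of the pigment genes. Diabetic pool 2 and control pool 1 were the lowest for 4 of the 7 listed genes, Col3a1, Dcn, Lum and Ogn, against 9.64% of all genes. Dcn and Lum, small proteoglycans of collagen fibrils, were singled out after their values were seen. Dcn was at 10.76, 7.49 and 10.22 in diabetic pools 1 to 3 and at 8.72 and 11.53 in control pools 1 and 2. Lum was at 10.05, 8.20 and 9.66 and at 9.004 and 10.59. The more abundant Col1a2, a chain of type I collagen, was at 9.86, 9.53 and 10.30 and at 10.45 and 11.61, and Fmod spanned 0.77. The summed signal of the list was 5487, 2556 and 5511 in diabetic pools 1 to 3 and 3315 and 12649 in control pools 1 and 2. The part of this tissue in the pigment values was not tested.

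Skeletal muscle genes overlapped with this order in part, but were low in diabetic pool 1 as well. Diabetic pool 2 and control pool 1 were lowest in 6 of 11 muscle genes, against 9.64% of all genes. Acta1, the muscle actin, was at 10.25, 9.40 and 13.41 in diabetic and 9.47 and 12.87 in control pools, and Atp2a1, the calcium pump of fast fibres, at 8.77, 8.82 and 13.49 and at 9.33 and 12.77. Diabetic pool 1 had high Pmel, Tyrp1 and Mlana, with Atp2a1 about as low as in diabetic pool 2. Not all muscle genes were alike in these pools. From diabetic pool 2 to pool 1, Tnnc2 differed by 1.01, Acta1 by 0.85, Tnnt3 by 0.82, Ckm by 0.73 and Myh2 by -1.08. The remaining muscle genes lay between -0.16 and 0.12. The part of muscle tissue in the pigment values was not tested. The summed muscle signal was 3034, 2206 and 91607 in diabetic and 2300 and 55002 in control pools. Among vessel genes Kdr spanned 0.51 and Plvap 0.63. Pecam1, under the filter, was at 9.02, 7.43 and 8.52 in diabetic and 9.12 and 9.40 in control pools, lowest in diabetic pool 2. Cdh5, also under the filter, went the other way, at 8.30, 9.41 and 9.12 in diabetic and 9.13 and 8.77 in control pools, highest in diabetic pool 2. Of the lens and cornea list 0 of 5 genes passed the filter. Krt12, the corneal keratin in that list, was at 10.28, 8.52 and 9.94 in diabetic and 8.60 and 8.25 in control pools.

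**Figure D4:**
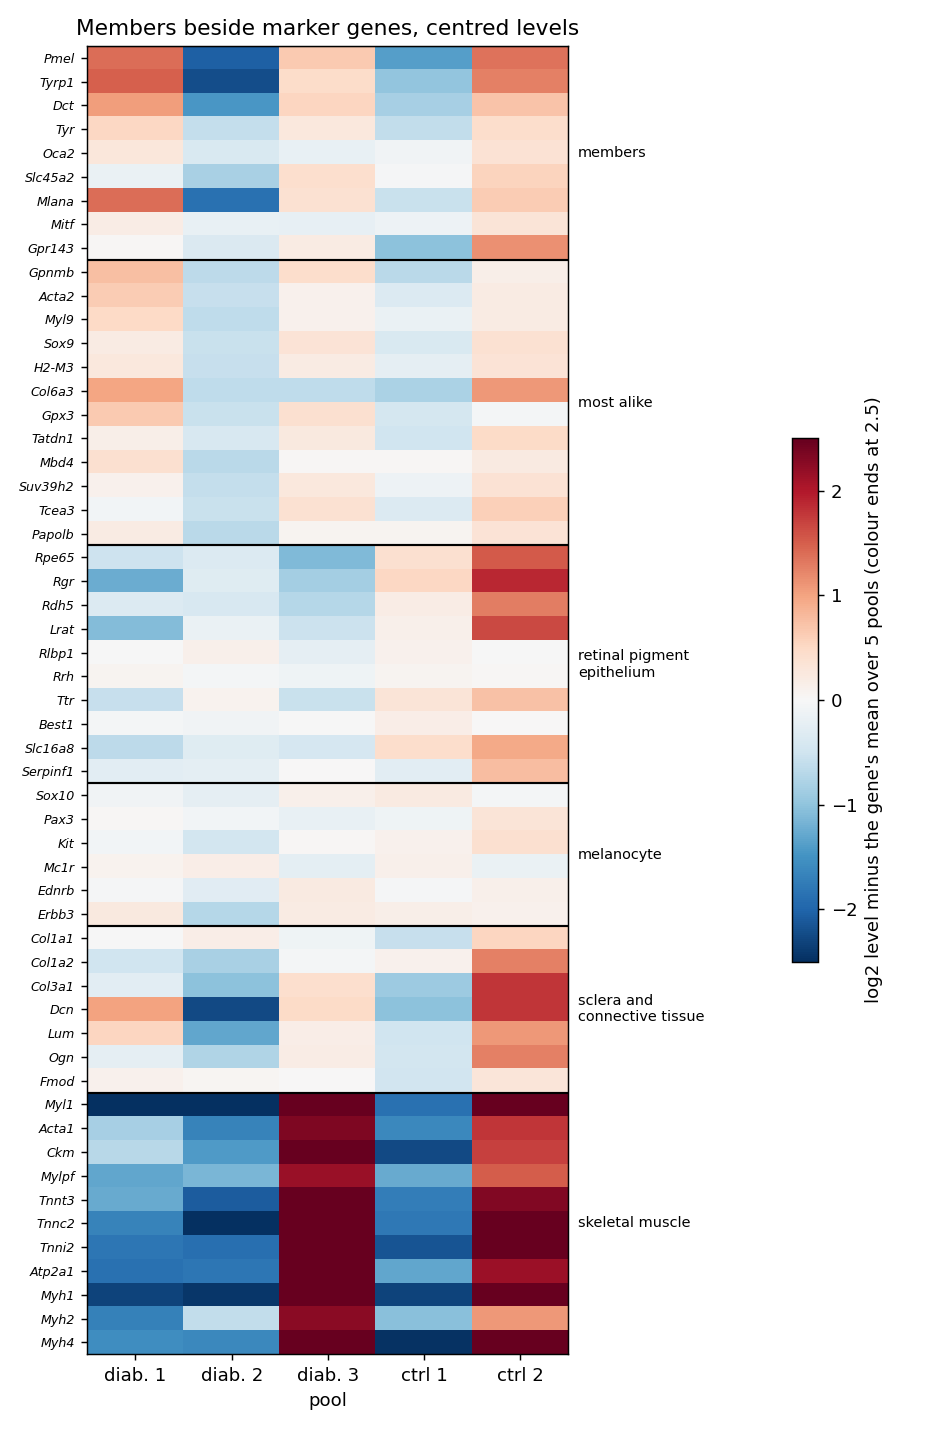
Log2 level of each gene minus its own mean over the 5 pools, with 1 row per gene and 1 column per pool. Rows are the 9 pigment genes, the 12 tested genes nearest to the mean profile, clone names left out, and 4 marker lists. Red is above and blue below the gene's mean. Dcn, Lum and Pmel are low in diabetic pool 2 and control pool 1, Rpe65 is high in both control pools, and the muscle genes are high in diabetic pool 3 and control pool 2.

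RNA quality measures moved with part of the pattern. Diabetic pool 2, with a 3′ over 5′ ratio of 4.32 for the beta-actin control probe sets, was the pool where Pmel, Tyrp1, Dct and Mlana were lowest. In control pool 1, where they were also low, the ratio was 2.52, inside the range of 2.01 to 2.71 of the other 4 arrays. Between control pools 2 and 1, whose ratios were 2.71 and 2.52, Pmel differed by 2.74 and Tyrp1 by 2.24. The Gapdh control probe sets differed less, with 3′ over 5′ ratios of 0.78, 0.90 and 0.84 in diabetic pools 1 to 3. In control pools 1 and 2 the Gapdh ratios were 0.82 and 0.81. The median signal lay between 635 and 715 in every array, and the log2 medians spanned 0.15. The part of RNA quality in the low pigment values of diabetic pool 2 was not tested.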

How the data were processed

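Total retinal RNA of 5 pools was measured on a whole-genome mouse array of 45101 probe sets. Each deposited value is the signal intensity of a probe set, not log-transformed, and the authors had scaled them to a common level, as the equal 2% trimmed means of 2500 show. The summarization software is not given in the sources used here. Replicates were taken as labelled pools, so p-values measure the spread between pools. Probe sets with exactly 1 symbol (34945, with 932 carrying several and 9160 none) were named through the platform annotation, and 34741 symbols were updated by Entrez ID with GRCm38.p6 tables.

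Values were taken as log2(signal + 120.6), the pseudocount being the 20th percentile, which understates changes of dim genes. The upper 60% of 18193 genes were tested with limma 3.58.1 in R 4.3.3 (lmFit, eBayes with a trend, 3 residual degrees of freedom) with Benjamini-Hochberg adjustment at 0.05. The number of arrays limits the precision. The steps were tested on simulated data. The 9 genes, the 10 marker and pathway lists and the rules were chosen with earlier results of these data known. Named were the 9 genes, the 2 genes of highest mean in a list and the 12 genes nearest in profile. Any gene of the melanosome, regulator and melanocyte lists could be named as well. Rpe65 and the other epithelium genes besides Ttr and Rlbp1 were chosen after their values were seen. So were Col3a1, Dcn, Lum, Ogn, Optc, Zic2, Krt12, Pecam1, Pou4f1, Crx and the vessel and rod genes outside this rule. The muscle genes besides Acta1 and Atp2a1 were likewise chosen after their values were seen. Alternatives covered normalization, pseudocount, filter, probe set choice, variance model, array weights, a replicate block and each array left out. Replicate numbers did not pair pools, which came from different mice. Figures were drawn with matplotlib 3.10.9.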

Additional observations from a re-analysis of the deposited data

Results flagged for a closer look

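Control probe sets, which no comparison of genes used, gave a beta-actin 3′ to 5′ ratio of 4.32 in diabetic pool 2, 1.60 times the higher of the control arrays. It stands here because this ratio lies above that of both control arrays.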

How the results depend on the processing

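No pigment gene passed an adjusted p of 0.05 in any of the 15 alternatives, and the smallest adjusted p of any of them was 0.853. Of 135 recomputed differences 25 changed sign, 14 of tested genes and 11 of genes under the filter. Oca2 and Slc45a2 stayed negative in every alternative. With a pseudocount of 1 Pmel was at -0.029, Gpr143 at 0.30 and Mlana at -0.77, and with the mean over probe sets Mitf was at 0.20 and Tyr at -0.21. Tyrp1 was at 0.19 with array weights. With the replicate block, which leaves diabetic pool 3 out of the comparison because no control has its number, Pmel was at -0.32 and Dct at -0.14. With single arrays left out, Pmel ran from -1.36 to 1.37, Tyrp1 from -1.34 to 0.90, Dct from -0.66 to 0.88 and Mitf from -0.40 to 0.058. Over all genes, 0 were called in the main comparison, 2 (Rgr and Spc25) with the replicate block and 0 to 1 with single arrays left out (Prss22 without diabetic pool 2, Spc25 without diabetic pool 3). Same-numbered pools had deviations that correlated at 0.13 and -0.14 across genes. Tyr, Slc45a2, Mlana and Gpr143 are limited by signals near the unknown background.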
